A study of Mus musculus with 15 samples.

Results

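Of the 38087 gene rows of the deposited exon count table, 9 genes were followed across all groups of the study: Fgf21, Gdf15, Angptl4, Angptl6, Inhbe, Lect2, Fetub, Fgfr4 and Klb. They were chosen by gene symbol as secreted liver proteins with metabolic roles (hepatokines) together with a receptor and a co-receptor of the liver's fibroblast growth factor system. All 9 had a row and all 9 passed the filter on low counts, which kept 17405 genes.

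Gene expression was measured by RNA sequencing of total RNA in cultured mouse hepatocytes, frozen cells of CD-1 donor mice plated on collagen under a matrix overlay. The study asked how serum of conventionally raised (ConvR) or germ-free (GF, without microbiota) mice, the sex of donor and serum, and growth hormone (GH) act on these cells. Cells received medium with 25% mouse serum for 24 h and then GH or vehicle for 2 h. The groups used here are 3 libraries of female hepatocytes in GF female serum with mouse GH at 8 ng per ml, 2 of female hepatocytes in GF female serum with vehicle, 3 of male hepatocytes in ConvR male serum, 3 of female hepatocytes in ConvR male serum and 2 of female hepatocytes in ConvR female serum. Below they are called GF serum plus GH, GF serum, male cells, male serum and female serum, and all but the male cells are female cells.

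Dexamethasone, insulin, transferrin, selenous acid, albumin and linoleic acid were in the medium of all groups. The labels give no donor age, do not say how many donors or serum donors were pooled, and do not say whether replicates were separate cultures from separate animals, so p-values measure the spread between libraries that may be technical replicates. Male and female cells were separate donor stocks, and the effect of sex and of the individual donors cannot be told apart. Since the number of serum donors is not given, the sex or germ-free state of these donors and the particular serum used cannot be told apart either. Of 15 labelled samples, 13 were used, because 2 columns of the count table share 1 header name and could not be assigned. Female serum and GF serum are therefore each represented by replicates 2 and 3.

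Fgf21 and Gdf15 are stress-responsive hormones that act on the brain and, for Fgf21, on adipose tissue. In liver, Fgf21 is a known target of the fatty acid sensor PPARα in fasting and of the stress factor ATF4, and Gdf15 and Inhbe are known targets of the ATF4 and CHOP branch. Angptl4 inhibits lipoprotein lipase and is a known PPAR target, and Inhbe encodes the subunit of activin E, a liver-made member of the TGF-β family that acts on adipose tissue. Fgfr4 is the main fibroblast growth factor receptor of hepatocytes and, with its co-receptor β-klotho (Klb), receives the intestinal hormone FGF15 that represses bile acid synthesis.

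Promoter windows from RefSeq (GRCm38.p6, 250 bases before to 50 bases after the annotated start) were found for 8 of the 9 genes, all but Angptl4, as 10 windows. Each was searched on both strands for a C/EBP-ATF response element (CARE) core TGATGNAA, a DR1 element, its half-site AGGTCA, a GAS element TTCNNNGAA, an E-box CACGTG and a cyclic AMP response element TGACGTCA. DR1 is a pair of these half-sites with any 1 base between them, found in 0.0396% of windows, so it contains the half-site, and the other motifs can share bases only by chance. Fgf21 and Inhbe are the members with a CARE core, which occurs in 3.97% of all 32851 windows of this length, and they are shown because their levels are set side by side below. In the following 28 bases, written along each gene's own strand, capitals mark the match, which is the reverse complement of the motif.

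Fgf21, chr7:45615612-45615639, minus strand: gacccccccaTTGCATCAtccgtccagg

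Inhbe, chr10:127352012-127352039, minus strand: atcctctttcTTGCATCAtgcatgtcca

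The match begins at position -139 from the start of Fgf21 and at -181 from the RefSeq start of Inhbe, which lies inside the first exon of the GENCODE model. Fgf21 also holds an E-box, a motif found in 7.15% of windows, and both of its matches stand in capitals in the 250 bases upstream of its start.

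Fgf21 upstream, chr7:45615491-45615740, minus strand: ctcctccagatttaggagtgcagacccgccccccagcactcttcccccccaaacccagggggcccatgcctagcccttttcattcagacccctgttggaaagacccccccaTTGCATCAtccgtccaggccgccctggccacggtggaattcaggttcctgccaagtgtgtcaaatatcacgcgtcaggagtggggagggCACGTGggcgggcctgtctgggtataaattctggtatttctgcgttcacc

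Of the 2 Gdf15 windows, one held the half-site, found in 16.3% of windows, and the other an E-box. The windows of Angptl6, Lect2, Fetub, Fgfr4 and Klb held none of these letters.

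Library totals ran from about 34097400 to 48742300 counts. Levels are given as counts per 1000000 counts (CPM) on library sizes scaled by TMM, and all intervals and tests rest on 13 libraries. Hepatocyte markers were abundant in all libraries, but the sum of 9 markers was 25977 to 26557 CPM in male cells and 12942 to 13731 CPM in female cells in the same serum. In GF serum it was 11374 to 11937 CPM, and in female serum 11902 to 13803 CPM. Endothelial, stellate, cholangiocyte and lymphocyte marker sums were at most 48.9 CPM in every library, and the macrophage sum of 78.5 to 167 CPM was mostly Cd68. Female-serum replicate 2 (488 CPM of Xist) and GF plus GH replicate 1 (679 CPM) held more of this X-linked RNA than other female libraries (277 to 397 CPM). These Xist values are on library totals without TMM scaling. Results were also computed without each of the Xist-rich libraries and without both.

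Compared per kilobase of exon, which allows genes to be ranked, mean levels over the 13 libraries spanned 172-fold. Angptl4 stood at 64.1 CPM per kb, above 94.0% of 16994 genes, and made up 47.1% of the sum over the 9 genes. Fetub (28.8), Lect2 (23.2) and Gdf15 (14.9 CPM per kb) followed. The other 5 genes were scarce on the same scale, with Fgf21 at 1.66, Inhbe at 1.20, Angptl6 at 1.12, Fgfr4 at 0.774 and Klb at 0.373 CPM per kb. The Inhbe value uses the GENCODE exon length of 5319 bases, part of which lies upstream of the RefSeq start. Its place among these scarce genes therefore depends on the annotation. Raw counts reached 18524 for Angptl4 and went down to 19 for Fgf21, so that counting error is a larger part of the spread for Fgf21, Klb and Angptl6.

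**Figure D1:**
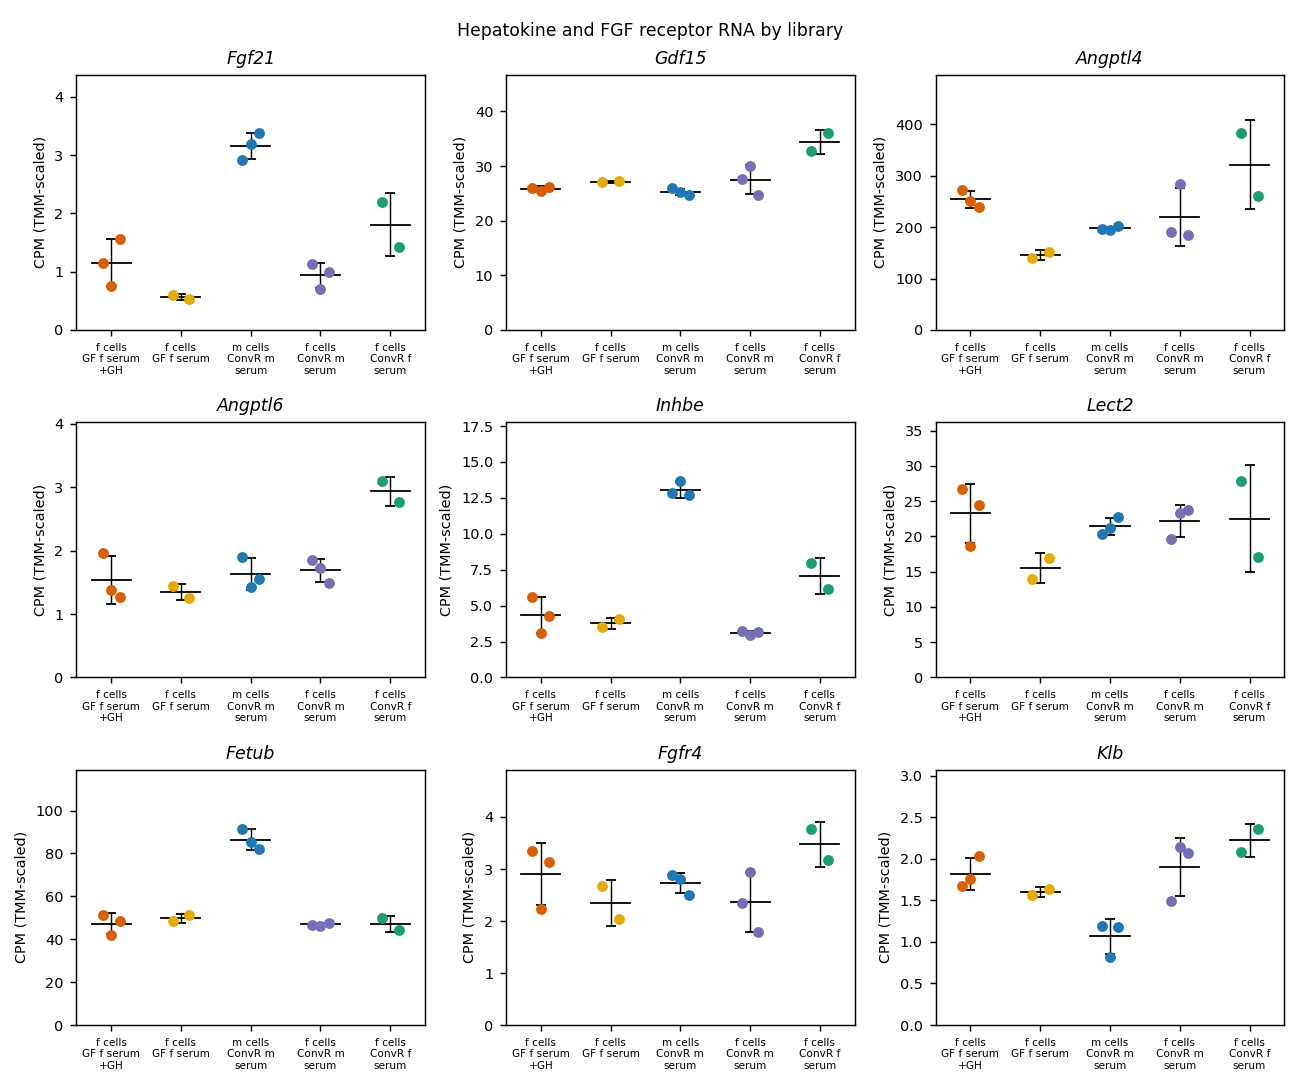
Level of each gene in each library, in TMM-scaled CPM, by group (GF, germ-free; ConvR, conventionally raised; GH, growth hormone; m, male; f, female). Points are libraries, the long bar is the mean and the whiskers are 1 SD (n = 2 or 3). Without overlap between libraries, Fgf21, Inhbe and Fetub are highest and Klb lowest in the male cells, and Gdf15 and Angptl6 are highest in female serum. Angptl4, Fgfr4 and Klb also have their highest mean in female serum, but with overlap.

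Fgf21 (ENSMUSG00000030827, mm10 chr7:45613886-45615490, minus strand) had 1.14, 0.760 and 1.57 CPM in GF serum plus GH and 0.600 and 0.529 CPM in GF serum. It had 2.92, 3.18 and 3.37 CPM in male cells and 1.12, 0.695 and 0.986 CPM in male serum. In female serum it had 2.19 and 1.43 CPM. The male cells lay above every female library, and the GF serum libraries lay below all others. In between, GF serum plus GH overlapped both female serum, which had the higher mean, and male serum, which had the lower, while female serum and male serum did not overlap. The highest group mean was 5.59 times the lowest.

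Gdf15 (ENSMUSG00000038508, chr8:70629393-70632456, minus strand) varied least among the 9 genes, the highest group mean being 1.36 times the lowest. It had 26.0, 25.4 and 26.2 CPM in GF serum plus GH, 27.0 and 27.3 CPM in GF serum, and 25.9, 25.3 and 24.8 CPM in male cells. It had 27.7, 30.0 and 24.7 CPM in male serum and 32.8 and 36.0 CPM in female serum. The female-serum libraries were above the other 11, which lay close together.

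Inhbe (ENSMUSG00000047492, chr10:127348857-127354411, minus strand) had 5.63, 3.11 and 4.30 CPM in GF serum plus GH and 3.51 and 4.04 CPM in GF serum. It had 12.8, 13.7 and 12.7 CPM in male cells, 3.21, 2.95 and 3.19 CPM in male serum, and 7.95 and 6.16 CPM in female serum. Male cells, then female serum, stood above all other libraries without overlap. GF serum plus GH overlapped GF serum, and male serum was lowest by its mean but overlapped GF serum plus GH.

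Angptl4 (ENSMUSG00000002289, chr17:33773750-33781830, minus strand) had 273, 250.1 and 239.6 CPM in GF serum plus GH and 139.6 and 152 CPM in GF serum. It had 197, 195 and 202 CPM in male cells and 191, 284 and 184 CPM in male serum. In female serum it had 382 and 259.9 CPM. The 2 GF serum libraries were the lowest of the 13. Replicate 2 of male serum stood apart from its 2 partners and lay inside the range of female serum, so those groups overlapped.

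Angptl6 (ENSMUSG00000038742, chr9:20873808-20879727, minus strand), an angiopoietin-like protein that counters obesity in mice, had 1.97, 1.38 and 1.26 CPM in GF serum plus GH and 1.44 and 1.25 CPM in GF serum. It had 1.90, 1.43 and 1.56 CPM in male cells and 1.85, 1.72 and 1.49 CPM in male serum. Female serum stood above all other libraries at 3.10 and 2.77 CPM, and the other 4 groups overlapped in a chain. In the annotation, 265 bases (16.75%) of its exons also belong to A230050P20Rik on the opposite strand, and since the strand setting of the counting is not given, reads over these bases cannot be assigned to either gene.

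Lect2 (ENSMUSG00000021539, chr13:56542464-56548502, minus strand), a hepatokine linked to insulin resistance in muscle, had 26.7, 18.6 and 24.5 CPM in GF serum plus GH and 14.0 and 17.0 CPM in GF serum. It had 20.4, 21.2 and 22.7 CPM in male cells, 19.6, 23.3 and 23.7 CPM in male serum, and 27.9 and 17.1 CPM in female serum. GF serum was lowest, with its higher library just under the lower one of female serum, and all other neighbouring groups overlapped.

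Fetub (ENSMUSG00000022871, chr16:22918334-22939778, plus strand), which encodes fetuin B, a liver-made protease inhibitor needed for female fertility in mice, had 51.2, 42.0 and 48.7 CPM in GF serum plus GH and 48.4 and 51.3 CPM in GF serum. It had 91.6, 85.5 and 82.0 CPM in male cells, 46.8, 46.2 and 47.7 CPM in male serum, and 49.9 and 44.4 CPM in female serum. All male-cell libraries were above all female-cell libraries. Among the female cells no neighbouring groups were separate.

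The receptor Fgfr4 (ENSMUSG00000005320, chr13:55152640-55168759, plus strand) had 3.34, 2.23 and 3.14 CPM in GF serum plus GH and 2.67 and 2.03 CPM in GF serum. It had 2.89, 2.80 and 2.51 CPM in male cells, 2.36, 2.95 and 1.80 CPM in male serum, and 3.78 and 3.17 CPM in female serum. Every group overlapped its neighbour in the order of means. The co-receptor Klb (ENSMUSG00000029195, chr5:65348314-65384007, plus strand) had 1.67, 1.76 and 2.04 CPM in GF serum plus GH, 1.56 and 1.64 CPM in GF serum, and 1.20, 0.824 and 1.18 CPM in male cells. It had 1.50, 2.14 and 2.07 CPM in male serum and 2.09 and 2.37 CPM in female serum. The 3 male-cell libraries were the lowest of the 13.

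GF female serum was set against ConvR female serum in female cells to ask what serum of mice without microbiota does. Of the 9 genes, 5 fell in GF serum and none rose. Of all 17405 genes tested, 3.54% fell, 2.86% rose and 6.41% changed in either direction. The 9 were chosen with earlier results of these data known, so the shares here and below describe the set and do not test it. Angptl4 averaged 146 ± 9.10 CPM in GF serum and 321 ± 86.7 CPM in female serum (SD, n = 2 each), a log2 fold change of -1.14 ± 0.18 (SE, adjusted p = 0.00156 by the quasi-likelihood test of edgeR with Benjamini-Hochberg adjustment). Fgf21 averaged 0.565 ± 0.0503 CPM in GF serum and 1.81 ± 0.537 CPM in female serum, the largest fold change of the 9 at -1.67 ± 0.35 (edgeR, adjusted p = 0.00962). Inhbe fell by 0.91 ± 0.20 on the log2 scale (edgeR, adjusted p = 0.0149).

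Angptl6 fell as well, with a log2 fold change of -1.12 ± 0.25 (edgeR, adjusted p = 0.0143). Its overlapping neighbour A230050P20Rik averaged 13.9 ± 1.45 CPM in GF serum and 16.8 ± 1.65 CPM in female serum, with a log2 fold change of -0.27 (edgeR, adjusted p = 0.243). Gdf15 fell by a smaller amount, -0.34 ± 0.09 on the log2 scale (edgeR, adjusted p = 0.0308). Lect2 (-0.54), Fgfr4 (-0.56) and Klb (-0.47) had negative log2 fold changes that did not pass (edgeR, adjusted p between 0.112 and 0.289). Lect2 had -0.15 without female-serum replicate 2 and -0.85 without female-serum replicate 3. It passed by DESeq2 (adjusted p = 0.0488) and by edgeR without the filter. For Lect2 and Angptl4 the fit without the filter gave similar fold changes with far smaller adjusted p-values. These were 9.65e-05 against 0.112 for Lect2 and 5.81e-37 against 0.00156 for Angptl4 (both edgeR), and the reason was not tested. The 95% interval of Fetub ran from -0.13 to 0.29. Libraries of the 2 groups did not overlap for 8 of the 9 genes, all lower in GF serum, which is so for 26.2% of all genes, while 23.7% were higher without overlap (49.9% in either direction).

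Of 9 hepatocyte markers, 5 also fell in GF serum: Tat (-1.35), Apoa1 (-0.97), Asgr1 (-0.61), Cps1 (-0.58) and Hnf4a (-0.43 on the log2 scale). The others did not pass, with Alb at 0.17, Serpina1c at -0.0057, Ttr at -0.36 and Apob at -0.45. In bulk RNA fewer cells of a type and less RNA per cell cannot be told apart, and the part of these markers in the falls above was not tested. Angptl4 remained past the threshold under all 10 other settings, with values of -1.39 to -0.83. The other 4 calls were lost without female-serum replicate 2, without GF serum replicate 2 and without GF serum replicate 3, which each left 1 of 9 genes called, and the Gdf15 call was also lost without female-serum replicate 3.

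Among 22 PPARα targets, 7 fell in GF serum, 15 did not pass and none rose, with a median log2 fold change of -0.48 beside -0.00265 over all genes. The falls included Ehhadh, an enzyme of peroxisomal fatty acid oxidation (27.3 CPM in GF serum and 100.0 CPM in female serum, log2 fold change -1.87), and the acyl-CoA thioesterase Acot2 (-1.36). Ehhadh, Acot2 and Acot1 passed whichever library was left out, while the count went down to 3 without female-serum replicate 2 and up to 11 without female-serum replicate 3. The count was 5 without GF serum replicate 2, 4 without GF serum replicate 3 and 11 by DESeq2.

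The 22 genes of the ATF4 and CHOP stress response gave no common direction. The stress-induced genes Nupr1 (0.75), Ppp1r15a (0.53) and Chac1 (0.39) rose, the pseudokinase gene Trib3 fell (-0.38 on the log2 scale), and the list median was 0.05. All 4 calls were lost without female-serum replicate 2, and each was lost in at least 3 of the 4 leave-one-out fits. Of 17 other hepatokines 7 fell and none rose, led by tsukushi (Tsku, -0.97), fetuin A (Ahsg, -0.79) and lipocalin 2 (Lcn2, -0.62). Ahsg passed whichever library was left out, and the count was 2 without female-serum replicate 2 or either GF serum library.

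In the FGF signalling list of 21 tested genes, Etv4 (1.00) and Egr1 (0.75), both transcription factors downstream of receptor signalling, and Fgfrl1 (0.47), a receptor without a kinase domain, rose, and Fgfr3 fell (-0.74). None of these 4 calls held without female-serum replicate 2, and Egr1 was the single one of them that held without GF serum replicate 3. The bile acid list of 10 genes had 2 falls, the conjugating enzyme Baat (-1.28) and the bile acid receptor gene Nr1h4 (-0.68), and 1 rise, the bile salt export pump Abcb11 (0.54). These 3 calls held in 1 of 4 leave-one-out fits, the one without female-serum replicate 3. In the activin and TGF-β list of 17 tested genes, 3 rose and 1 fell. Inhba, the subunit of activin A, averaged 14.3 CPM in GF serum and 3.59 CPM in female serum, with a log2 fold change of 1.99 (edgeR, adjusted p = 0.00276) that passed whichever library was left out. The receptor gene Acvr1 (0.59) and the inhibitory Smad7 (0.48) rose and Tgfb2 fell (-0.88), and each of these 3 calls was lost in at least 2 of 4 leave-one-out fits. None of 7 other angiopoietin-like and lipase genes passed by edgeR, none had an unadjusted p under 0.05, and DESeq2 called 0.

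**Figure D2:**
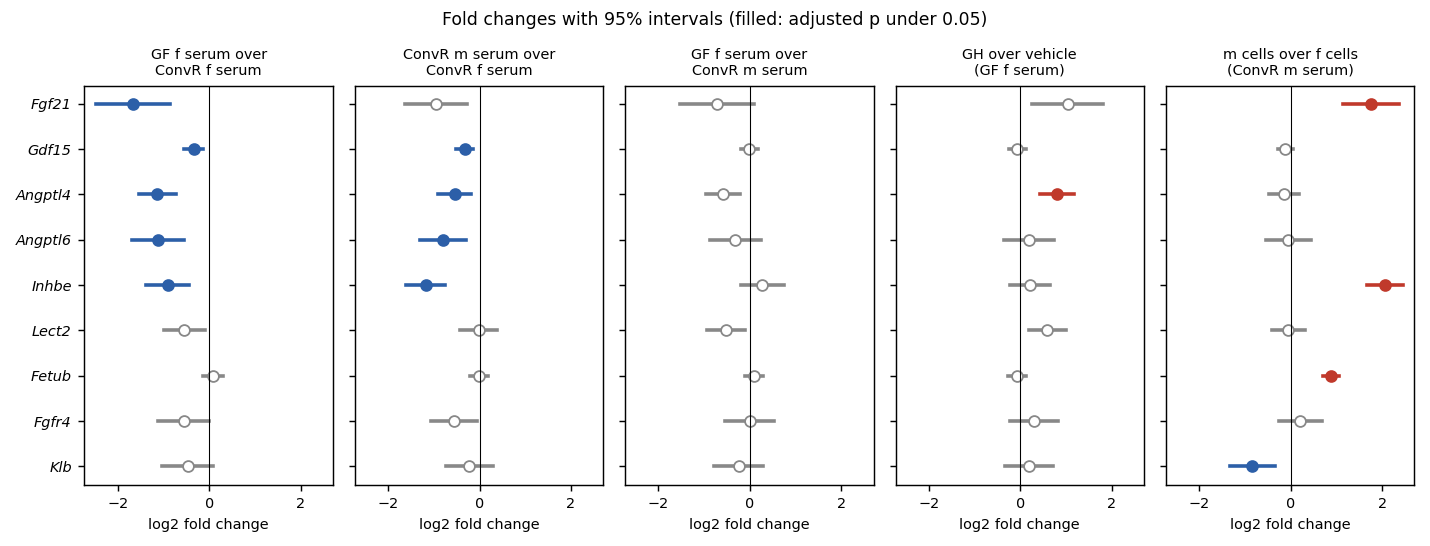
Log2 fold change of each gene in 5 comparisons (GF, germ-free; ConvR, conventionally raised; m, male; f, female), with 95% intervals on 8 residual degrees of freedom. Filled points passed an adjusted p of 0.05, red above 0 and blue below 0. In GF serum 5 genes fell, in male serum 4 fell, with GH 1 rose, and in male cells 3 rose and 1 fell.

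ConvR male serum was set against ConvR female serum in female cells to ask for an effect of the sex of the serum donor. This comparison shares its 2 female-serum libraries with the one above, so the 2 sets of values are not independent. In male serum 4 of the 9 genes fell and none rose, beside 4.85% of all genes that fell, 3.95% that rose and 8.8% that changed in either direction. Inhbe averaged 3.11 ± 0.147 CPM in male serum (SD, n = 3) and 7.05 ± 1.26 CPM in female serum (SD, n = 2), with a log2 fold change of -1.18 ± 0.19 (edgeR, adjusted p = 0.000981). Angptl6 (-0.80 ± 0.22, adjusted p = 0.0330), Angptl4 (-0.55 ± 0.16, adjusted p = 0.0405) and Gdf15 (-0.32 ± 0.08, adjusted p = 0.0190, all edgeR) fell by less on the log2 scale.

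Fgf21 averaged 0.935 ± 0.219 CPM in male serum and 1.81 ± 0.537 CPM in female serum, a log2 fold change of -0.95 that did not pass (edgeR, adjusted p = 0.0559) but did with DESeq2 (adjusted p = 0.0293). Fgfr4 had -0.56 (edgeR, adjusted p = 0.132). Klb had -0.22, Lect2 -0.02 and Fetub -0.01, each with an interval that included 0. Libraries did not overlap for 5 of the 9 genes, all lower in male serum, beside 18.6% of all genes lower and 16.4% higher (35% in either direction), and Angptl4 was called although its libraries overlapped. A230050P20Rik, which overlaps Angptl6, had a log2 fold change of -0.07 (edgeR, adjusted p = 0.770).

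Inhbe remained called under all 11 other settings. The Angptl6 call was lost whichever library was left out, with log2 fold changes of -0.88 to -0.71 and edgeR adjusted p-values of 0.0501 to 0.188. The Angptl4 call was lost without female-serum replicate 2 (-0.25, edgeR adjusted p = 0.460) and without male-serum replicate 1 or 3. It was also lost by DESeq2 (adjusted p = 0.0751), so that it held in 5 of 12 settings. The Gdf15 call was lost without female-serum replicate 3 or male-serum replicate 3. When only the compared groups entered the fit, 1 of 9 passed.

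Of the 9 hepatocyte markers, Tat (-1.11), Cps1 (-0.54) and Asgr1 (-0.48) fell in male serum. The others did not pass, with Ttr (0.25), Serpina1c (0.22) and Alb (0.20) higher and Apoa1 (-0.49), Hnf4a (-0.24) and Apob (-0.06) lower. Of markers of other cell types, Cd68 (-0.38) and Spp1 (-0.70) fell and Sox9 (0.79) rose. The part of these markers in the results was not tested. Among PPARα targets 4 of 22 fell, led by Ehhadh (-1.31), Acot2 (-0.75) and Acot1 (-0.61), and the lipid droplet protein gene Plin2 rose (0.27), with a list median of -0.04. Without female-serum replicate 2 only Acot1 of the falls remained past the threshold. In the ATF4 and CHOP list 4 of 22 fell, with Ddit3, the gene of CHOP, at -0.56, Vldlr at -0.54 and Trib3 at -0.40, and Nupr1 rose (1.12). Nupr1, Ddit3 and Vldlr passed whichever library was left out, and the count of falls was 2 without female-serum replicate 2.

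Fgfr3 (-0.68) fell and Fgfrl1 (0.55) rose among 21 FGF signalling genes, and Baat (-1.03) fell and Cyp8b1 (0.55), an enzyme of cholic acid synthesis, rose among 10 bile acid genes. The Baat call was lost without female-serum replicate 2, and the Cyp8b1 call was lost in 4 of 5 leave-one-out fits. Acvr1 (1.06) and Smad7 (0.84) rose and Tgfb2 (-0.87) fell in the activin and TGF-β list. The first 2 calls held in all 5 leave-one-out fits, and the Tgfb2 call was lost without female-serum replicate 2 (-0.55) and without male-serum replicate 3. Of 17 other hepatokines 5 fell, led by Tsku (-0.87), Ahsg (-0.84) and Lcn2 (-0.57), and 1 of them, Ahsg, remained past the threshold without female-serum replicate 2. None of the 7 other angiopoietin-like and lipase genes passed by edgeR or DESeq2, and none had an unadjusted p under 0.05.

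GF female serum was also set against ConvR male serum, both on female cells, since the study asked how GF and male serum compare. Its libraries are the GF serum and male-serum libraries of the 2 comparisons above, so the values are not independent of those. None of the 9 genes passed by edgeR or by DESeq2, and 0.448% of all genes did (0.264% lower and 0.184% higher), a share at which a count of 0 in 9 says nothing particular of these genes. At an unadjusted p under 0.05 there were 2 genes, both with lower values in GF serum. The share of all genes under this unadjusted p was not counted in any comparison, so such counts have no background beside them. Angptl4 averaged 146 ± 9.10 CPM in GF serum and 220 ± 55.8 CPM in male serum, with a log2 fold change of -0.59 and a 95% interval of -0.96 to -0.21 (edgeR, adjusted p = 0.135). Lect2 had -0.52 with an interval of -0.93 to -0.11 (edgeR, adjusted p = 0.258). Without both Xist-rich libraries the Angptl4 difference passed by edgeR, although neither of them is in the compared groups. The compared libraries were the same in that fit, and the spread and scaling shared by all groups were estimated anew.

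Fgf21 had a log2 fold change of -0.72 with an interval of -1.53 to 0.08, and Inhbe of 0.27 with an interval of -0.19 to 0.74. Gdf15 (-0.02), Fetub (0.09) and Fgfr4 (-0.00081) were near 0, with intervals of -0.20 to 0.17 for Gdf15, -0.11 to 0.28 for Fetub and -0.54 to 0.54 for Fgfr4. Libraries did not overlap for 6 of the 9 genes, 4 lower and 2 higher in GF serum, beside 12.1% of all genes lower and 12.2% higher (24.3% in either direction). Among the lists, Creb3l3, a liver transcription factor of lipid metabolism (-0.61), Cyp8b1 (-0.87) and Igf1, a growth factor induced by GH (-0.42), fell in GF serum and Vldlr rose (0.41), and each of these calls was lost without GF serum replicate 2 and without replicate 3. Of 22 PPARα targets 21 had lower values in GF serum, with a median of -0.36 beside -0.00614 over all genes. No FGF signalling, activin or other angiopoietin-like gene passed by edgeR, where 4, 4 and 0 of them had an unadjusted p under 0.05 and DESeq2 called 0, 2 and 0.

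GH for 2 h was set against vehicle in female cells in GF serum. The 2 vehicle libraries are the GF serum libraries of the comparisons above. A fall in GF serum there and a rise with GH here are therefore not independent results. Angptl4 was the single gene of the 9 that rose, beside 0.511% of all genes that rose, 0.0747% that fell and 0.586% that changed in either direction. It averaged 254 ± 16.9 CPM in GF serum plus GH (SD, n = 3) and 146 ± 9.10 CPM in GF serum (SD, n = 2), a log2 fold change of 0.80 ± 0.16 (edgeR, adjusted p = 0.0339), or 1.74-fold. All 3 libraries with GH were above both without. The call was lost without GH replicate 1, without GH replicate 3 and without either GF serum library, with log2 fold changes of 0.74 to 0.87 and adjusted p-values of 0.0764 to 0.375 by edgeR.

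Fgf21 averaged 1.16 ± 0.404 CPM in GF serum plus GH and 0.565 ± 0.0503 CPM in GF serum, with a log2 fold change of 1.04 and an interval of 0.26 to 1.81 that did not pass after adjustment (edgeR, adjusted p = 0.220). Lect2 averaged 23.3 ± 4.17 CPM in GF serum plus GH and 15.5 ± 2.13 CPM in GF serum, with 0.59 on the log2 scale (edgeR, adjusted p = 0.182), and DESeq2 called it (adjusted p = 0.0455). Gdf15, Angptl6, Inhbe, Fetub, Fgfr4 and Klb had log2 fold changes of -0.08 to 0.30, all with intervals that included 0. Libraries did not overlap for 5 of the 9 genes, beside 32% of all genes (16.6% higher and 15.3% lower), with Fgf21, Angptl4, Lect2 and Klb higher and Gdf15 lower with GH.

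Tsku rose among the 17 other hepatokines (124 CPM in GF serum plus GH and 63.9 CPM in GF serum, log2 fold change 0.95, edgeR adjusted p = 0.0176), a call that held in 1 of 5 leave-one-out fits, the one without GH replicate 2. None of 22 PPARα targets passed by edgeR, and DESeq2 called 3. Of the 22, 20 had higher values with GH, with a median of 0.28 beside -0.00114 over all genes. An unadjusted p under 0.05 was found for 11, and the share of all genes under it was not counted. In the FGF signalling, bile acid, ATF4 and CHOP, activin and other angiopoietin-like lists edgeR called 0 genes, where 2, 3, 6, 4 and 0 genes had an unadjusted p under 0.05 and DESeq2 called 1, 1, 0, 0 and 0.

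**Figure D3:**
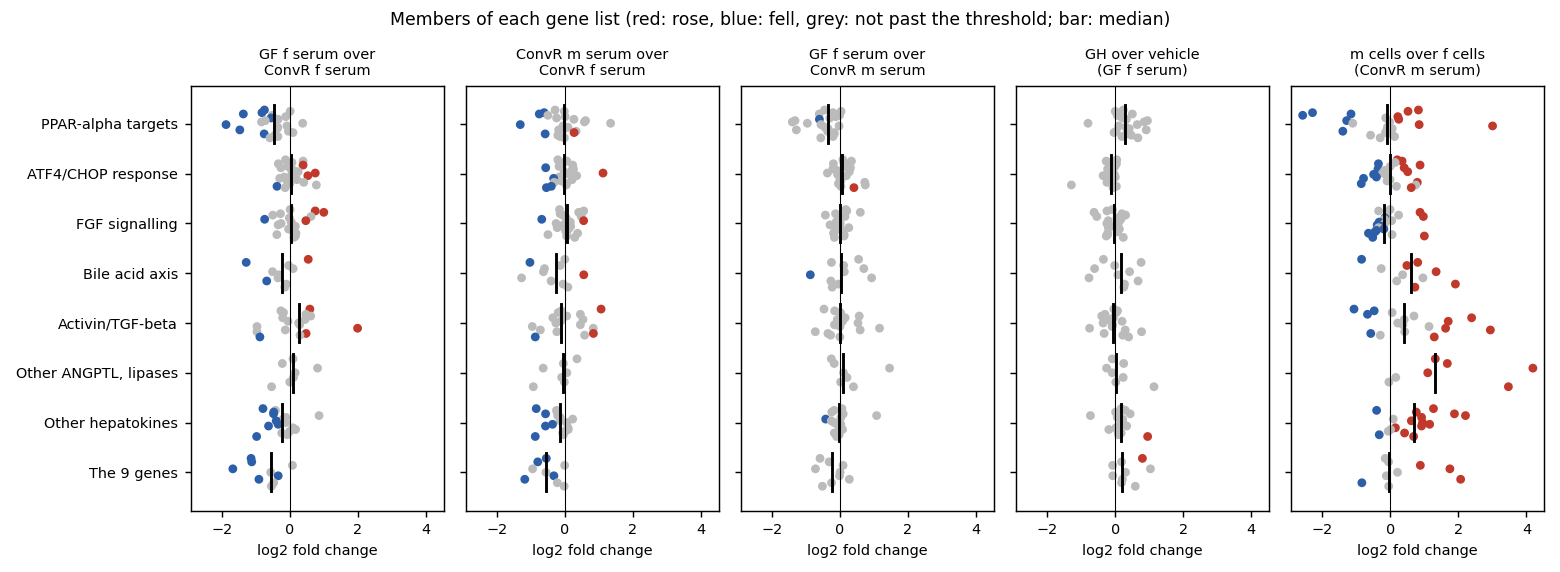
Log2 fold change of every tested gene of the 7 gene lists and of the 9 genes, in 5 comparisons (GF, germ-free; ConvR, conventionally raised; m, male; f, female). Red points rose and blue points fell at an adjusted p of 0.05, grey points did not pass, and bars are medians. In GF serum 7 PPARα targets fell, and in male cells 12 other hepatokines rose.

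Male hepatocytes were set against female hepatocytes, both in ConvR male serum. The female-cell libraries here are the male-serum libraries of the comparisons above. Fgf21, Inhbe and Fetub rose and Klb fell in the male cells. These 4 of 9 genes stand beside 36.7% of all genes that changed in either direction (17.6% rose and 19% fell), a share near theirs, so the count says nothing particular of the 9. Inhbe averaged 13.1 ± 0.541 CPM in male cells and 3.11 ± 0.147 CPM in female cells (SD, n = 3 each), 4.19-fold higher, with a log2 fold change of 2.07 ± 0.17 (edgeR, adjusted p = 1.09e-07). Fgf21 averaged 3.16 ± 0.227 CPM in male cells and 0.935 ± 0.219 CPM in female cells, 3.36-fold higher, at 1.75 ± 0.27 on the log2 scale (edgeR, adjusted p = 7.75e-05). Fetub averaged 86.4 ± 4.85 CPM in male cells and 46.9 ± 0.731 CPM in female cells, with a log2 fold change of 0.88 ± 0.08 (edgeR, adjusted p = 1.68e-07).

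Klb averaged 1.07 ± 0.211 CPM in male cells and 1.90 ± 0.352 CPM in female cells, with a log2 fold change of -0.84 ± 0.22 (edgeR, adjusted p = 0.00619). Its partner Fgfr4 had 0.21 with an interval of -0.26 to 0.69. Gdf15 (-0.12), Angptl4 (-0.15), Angptl6 (-0.05) and Lect2 (-0.05) did not pass, with adjusted p-values of 0.229 to 0.873 by edgeR. The same 4 genes were called under all 12 other settings, with Inhbe at 1.98 to 2.10, Fgf21 at 1.58 to 1.90, Fetub at 0.79 to 0.93 and Klb at -0.98 to -0.67. Libraries did not overlap for these 4 genes, beside 47.5% of all genes (23.2% higher and 24.3% lower).

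Beside these changes, 7 of 9 hepatocyte markers rose and Hnf4a (-0.33) fell in male cells, Alb by 1.39 and Cps1 by 2.38 on the log2 scale, and 5 of 6 endothelial markers rose (sums of 44.8 to 47.1 CPM in male cells and 13.5 to 16.3 CPM in female cells). Cd68 rose by 0.96. Of the stellate markers Col3a1 (0.96), Rgs5 (0.86) and Pdgfrb (0.82) rose and Col1a1 (-1.55) fell, and of the cholangiocyte markers Epcam (2.42) rose and Sox9 (-0.82) fell. The part of these markers in the results was not tested. With library size alone as scaling the median of all genes was -0.11 and 33.6% of the called genes rose, against -0.02 and 48.0% with TMM.

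Most lists moved in both directions between the cells. Of 17 other hepatokines 12 rose and 2 fell, led by Gpnmb (2.21), Fgl1 (1.88) and Ahsg (1.27), with Dpp4 (-0.40) and Smoc1 (-0.33) lower. The Smoc1 call was lost in all 6 leave-one-out fits and the Dpp4 call in 4 of 6. Of 7 other angiopoietin-like and lipase genes 5 rose, among them Angptl2 (1.32) and hepatic lipase, Lipc (1.10 on the log2 scale). Of 10 bile acid genes 5 rose, including the uptake transporter Slc10a1 (1.91), Cyp7b1 (1.34) and Baat (0.80), and the export pump Abcb11 (-0.85) fell. Of 17 activin and TGF-β genes 5 rose and 4 fell, with the activin subunits Inhbb (2.94) and Inhba (1.62) and the activin-binding Fst (1.70) higher and Acvr1 (-1.07), Acvr2b (-0.67) and Smad7 (-0.58) lower.

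In the FGF signalling list 3 of 21 genes rose, namely Spry2 (1.00), Fgfr1 (0.97) and Etv4 (0.87), and 9 fell, led by Spred2 (-0.64), Spry4 (-0.52) and Spred1 (-0.45). These 3 and Spry2 encode inhibitors of this signalling, and the other falls were in Frs2, Grb2, Sos1, Ptpn11, Gab1 and Fgfr2, which encode a receptor and proteins that pass its signal on. The Spry4 call was lost in 4 of 6 leave-one-out fits. The 9 falls became 5 without male-cell replicate 2, without male-cell replicate 3 and without female-cell replicate 1. Of 22 PPARα targets 6 rose and 5 fell, with the fatty acid binding protein gene Fabp1 (59.2 CPM in male cells and 7.38 CPM in female cells), Ehhadh at 0.85 and Acaa1b at 0.82, and with Acot3 at -2.58, Acot1 at -2.29 and Pdk4 at -1.40. Acot3 and Acot1 belong to a family of near-identical thioesterase genes whose reads can be hard to place. The ATF4 and CHOP list split 7 to 6, with Chac1 (0.87), Slc7a11 (0.79) and Vldlr (0.61) higher and Slc7a5 (-0.86), Sesn2 (-0.79) and Phgdh (-0.49) lower, and a median of -0.01 beside -0.02 over all genes.

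**Figure D4:**
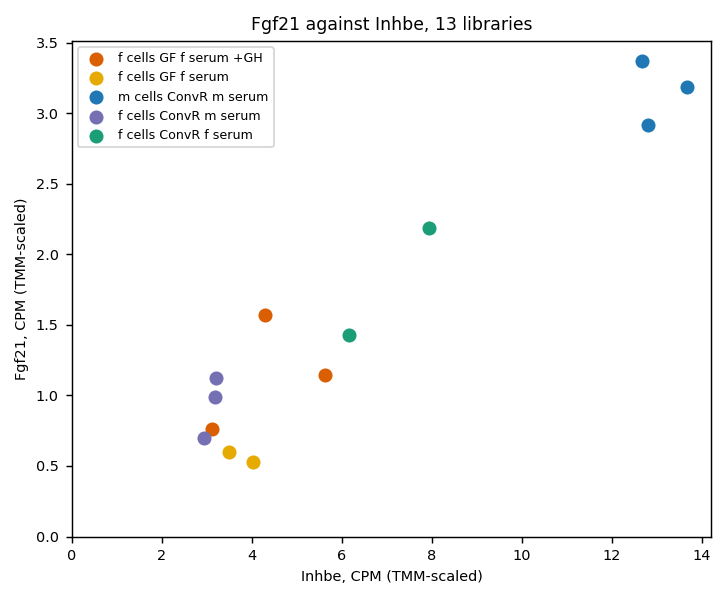
Level of Fgf21 against Inhbe in each of the 13 libraries, both in TMM-scaled CPM (GF, germ-free; ConvR, conventionally raised; GH, growth hormone; m, male; f, female). Each point is a library and colours mark the 5 groups. The 3 male-cell libraries lie at the upper right and the 2 female-serum libraries follow, while GF serum and male serum lie at the lower left.

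Fgf21 and Inhbe, the 2 members with a CARE core in the sequences above, had their highest group mean in male cells and their second in female serum. Their lowest groups differed (GF serum for Fgf21 and male serum for Inhbe). Fetub, whose windows held no CARE core, also had its highest group mean in male cells. A link of the motif to these levels was not tested. Across the 13 libraries, the genes whose log2 CPM ran closest to Inhbe were Dpy19l3 (r = 0.98), Fgg and Ugt2b34, and those closest to Fgf21 were Myh10 (r = 0.96), Efha1 and Rassf3. Fetub ran closest to Hrg (r = 0.99), Ilvbl and F2, and Klb to Tpgs2 (r = 0.97), Wdr35 and Wrb. These r values are Pearson correlations over libraries that share donors and sera, the best of 11581 genes, and for these 4 members the male cells form an end of the range.

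Angptl4 ran closest to Gadd45b (r = 0.96), Eogt and Eci1, and Gdf15 to Tbc1d8 (r = 0.95), Fzd7 and Rrp36. Angptl6 had Zbtb16 (r = 0.92), Tmem8 and Zfp750, Lect2 had Chn2 (r = 0.91), Hadha and Vnn1, and Fgfr4 had Bhmt2 (r = 0.90), Bphl and Lace1 as the closest genes.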

How the data were processed

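RNA from cultured mouse hepatocytes was sequenced after depletion of ribosomal RNA with a stranded kit, per the labels' protocols. The authors deposited a table of unscaled counts, whole numbers of reads in the exons of each gene. The submitters' processing notes name STAR 2.4.0i and mm10, while no source used here gives the counting program, its annotation or its strand setting. The 2 columns with 1 shared header name were left out, although the design had assumed all samples.

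Counts were scaled by TMM, filtered with filterByExpr (minimum count 10) and fitted in 1 model of 5 groups (edgeR 4.0.16, R 4.3.3, 13 libraries, 8 residual degrees of freedom, biological coefficient of variation 9.02%). The 5 comparisons used the two-sided quasi-likelihood F test with Benjamini-Hochberg adjustment over 17405 genes and a threshold of 0.05. Alternatives were DESeq2 1.42.0, library size alone, no filter, only the compared groups, a replicate block, and fits without each library and without both Xist-rich ones. The procedure was tested on simulated counts. Within groups, the chi-square over its degrees of freedom between libraries was 5.46 to 53.4, above sampling noise.

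The 9 genes and the 7 gene lists (121 of 123 symbols in the table, Angptl8 and Selenop unmatched) were chosen with earlier results of these data known. Per list, comparison and direction, up to 3 called genes with the largest fold change and a mean count of at least 50 were named, and some genes that this rule names are not reported here. For each of the 9, the 3 genes with the highest correlation of log2 CPM (prior count 2) were named, leaving out predicted models. List counts under the alternatives, and counts named outside this rule (hepatocyte markers), were chosen after seeing the data. Coordinates and exon lengths are from GENCODE M21.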

Additional observations from a re-analysis of the deposited data

How the results depend on the processing

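Of 495 values of single members under other settings, 419 kept direction and side of the threshold. A further 13 passed in addition, 40 no longer passed and 23 changed sign, these 23 all uncalled. Only a called value can be lost, and most of the 495 belong to members not called with all libraries. The share of calls lost is therefore larger than 40 of 495, and all 40 lay in the serum and GH comparisons. In male against female cells no call changed (members 4 in every fit).

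Leaving out 1 library at a time gave 274 to 1225 genes and 1 to 5 members for GF against female serum (1115 and 5 with all), 663 to 1652 genes and 1 to 3 members for male against female serum (1532 and 4), 33 to 190 genes and 0 to 1 members for GH (102 and 1), and 2 to 160 genes and 0 members for GF against male serum (78 and 0). Without both Xist-rich libraries the counts were 367 genes and 1 member, 825 genes and 2 members, an unchanged 1 member for GH, and 286 genes and 1 member, in the same order. DESeq2 called 272 genes and 2 members with GH and 311 genes for GF against male serum. Without a filter, 1731 genes were called for GF against female serum, 796 genes and 3 members with GH, and 622 genes and 2 members for GF against male serum. With only the compared groups, 611 genes were called for GF against female serum, 468 genes and 1 member for male against female serum, and 156 genes with GH.

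The correlation of deviations from group means was over 0.1 in 1 of 23 same-numbered pairs and in 2 of 44 other pairs. Deviations within groups of 2 or 3 libraries are tied to each other, so this cannot exclude that replicate numbers pair the libraries. With a replicate block, GH gave 62 genes and 0 members, GF against male serum 31 genes, and Fgfr4 0.048 there, while GF against female serum gave 5 members, male against female serum 3 (Angptl4 lost, edgeR adjusted p = 0.0535) and the cells 4. For GF against male serum, Fgfr4 was also 0.013 with library size alone, 0.0055 without a filter, 0.0033 without both Xist-rich libraries and -0.21 to 0.19 without single libraries, and Gdf15 was -0.088 to 0.050. For male against female serum, Lect2 was -0.33 to 0.37 without single libraries and 0.37 without both, and Fetub -0.092 to 0.074 and 0.073. With GH, Angptl6 was -0.037 to 0.31 and -0.036, Inhbe -0.020 to 0.40 and -0.019, and Fetub -0.14 to 0.0018. Fetub was -0.0043 to 0.16 for GF against female serum. Between the cells, Angptl6 was -0.17 to 0.046, Angptl4 -0.26 to 0.078 and Lect2 -0.13 to 0.00013. The cause of these changes was not tested. Depth limits Fgf21, Klb and Angptl6 most, with 19 to 117, 30 to 106 and 45 to 150 counts per library, in that order.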

Other observations

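Spread within groups differed for Angptl4. Its coefficient of variation was 1.75% over the 3 male-cell libraries, 25.4% over the 3 male-serum libraries and 27.0% over the 2 female-serum libraries.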
